A study of Mus musculus with 3 samples.

Results

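The genes described here are the core spliceosome and RNA-binding motif genes: every gene with a protein-coding transcript whose symbol starts with Snrp, U2af, Sf3a or Sf3b, or with Lsm, Prpf or Rbm followed by a digit. The rule uses names alone and no measured value. It found 89 genes among 21901 protein-coding genes. The study sequenced total RNA, after ribosomal RNA depletion, from the chromatin fraction of macrophages (BMDM) of the mouse strain C57BL/6J that had been exposed to Lipid A at 100 ng/ml for 60 minutes. Lipid A is the membrane anchor of bacterial lipopolysaccharide and the part that Toll-like receptor 4 senses. All 3 libraries, biological replicates 1, 2 and 3, belong to this 1 group, and their labels carry 1 donor entry. The starting RNA on the labels was 1 µg (replicate 1), 250 ng (replicate 2) and 500 ng (replicate 3), and the labels give neither age nor sex. No unstimulated library was analysed here, so no value below is a response to Lipid A, and every test compares isoforms of a gene within these libraries.

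The spliceosome removes introns from pre-mRNA while much of that RNA is still attached to chromatin. Its small nuclear ribonucleoproteins (snRNPs) carry a ring of Sm proteins, or of LSM proteins in the case of U6. U1 recognises the 5′ splice site, U2AF the 3′ splice site, and the SF3A and SF3B complexes hold U2 on the branch point before the U4/U6.U5 tri-snRNP joins. Many RBM proteins bind these complexes and shift the choice of exons. Genes of splicing factors are known for introns that stay in the RNA and for isoforms that end in nonsense-mediated decay (NMD), the pathway that destroys transcripts with an early stop codon.

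Levels are TPM, a unit that divides by transcript length and has the same total in every library. They come from the gene table unless a second transcript table, with the column names that kallisto writes, is named. The gene tables summed to 13318395, 15352661 and 15812581 expected counts on annotated genes in replicates 1, 2 and 3. Of these counts the 89 genes took 0.749% ± 0.0335 (SD, n = 3). A gene was called detected where every library had at least 1 TPM. All 8 macrophage markers examined, such as Csf1r and Mrc1, were detected. None of 15 markers of T cells, B cells, neutrophils, erythroid cells, fibroblasts and endothelial cells was: 6 were at 0 in every library and the highest, Pecam1, averaged 0.337 TPM. With kallisto all 8 macrophage markers and 3 of the 15 others were detected.

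The donor and acceptor sites of introns that lie inside abundant retained-intron transcripts of these genes are shown here as examples. Reads at these sites were not counted, and the isoform results below use only the levels of annotated transcripts. The sequences are those of GENCODE M21 transcripts, in mm10 coordinates. Each donor line holds the last 12 bases of the exon and the first 18 of the intron, and each acceptor line the last 18 bases of the intron and the first 12 of the next exon. Capitals mark the GT that opens an intron and the AG that closes it. Transcript Sf3b1-203 keeps the whole intron chr1:55014563-55016375 (minus strand, 1813 bases), and Rbm25-206 keeps chr12:83660679-83663978 (plus strand, 3300 bases). Transcript Rbm39-205 runs past the donor of the intron chr2:156177386-156179176 (minus strand) and covers its first 618 bases, so only a donor is shown. All 3 introns lie within the coding region.
Sf3b1 donor: cttttgcagatgGTaattctttcccacttt
Sf3b1 acceptor: tgctgttcttttctgcAGgagggaagactc
Rbm25 donor: gatacacacaagGTagtattcttgattttt
Rbm25 acceptor: acttttgttggtttctAGaaactggaagaa
Rbm39 donor: ccttacaagaagGTgagaaaacacgctagt

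Most of the genes had chromatin RNA in every library, and a few of them held most of it. Of the 89 genes 68 were detected (76.4%), against 35.9% of all protein-coding genes, as were 57 of 62 other spliceosome genes whose symbols fall outside the rule. The median log2(TPM + 1) of the 89 genes was 2.67 ± 0.13 (SD over 3 libraries), beside 0.30 over all coding genes. Rbm39 alone held 30.7% of their summed TPM and the first 3, Rbm39, Rbm25 and Sf3b1, held 54.9%. Another 6 genes were listed at 0 in every library: Rbm11, Rbm24, Rbm31y, Rbm46, Rbm8a2 and Snrpn, the last of which encodes the brain form of the SmB protein. In a bulk library, fewer cells with a transcript and less of it in each cell cannot be told apart.

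**Figure D1:**
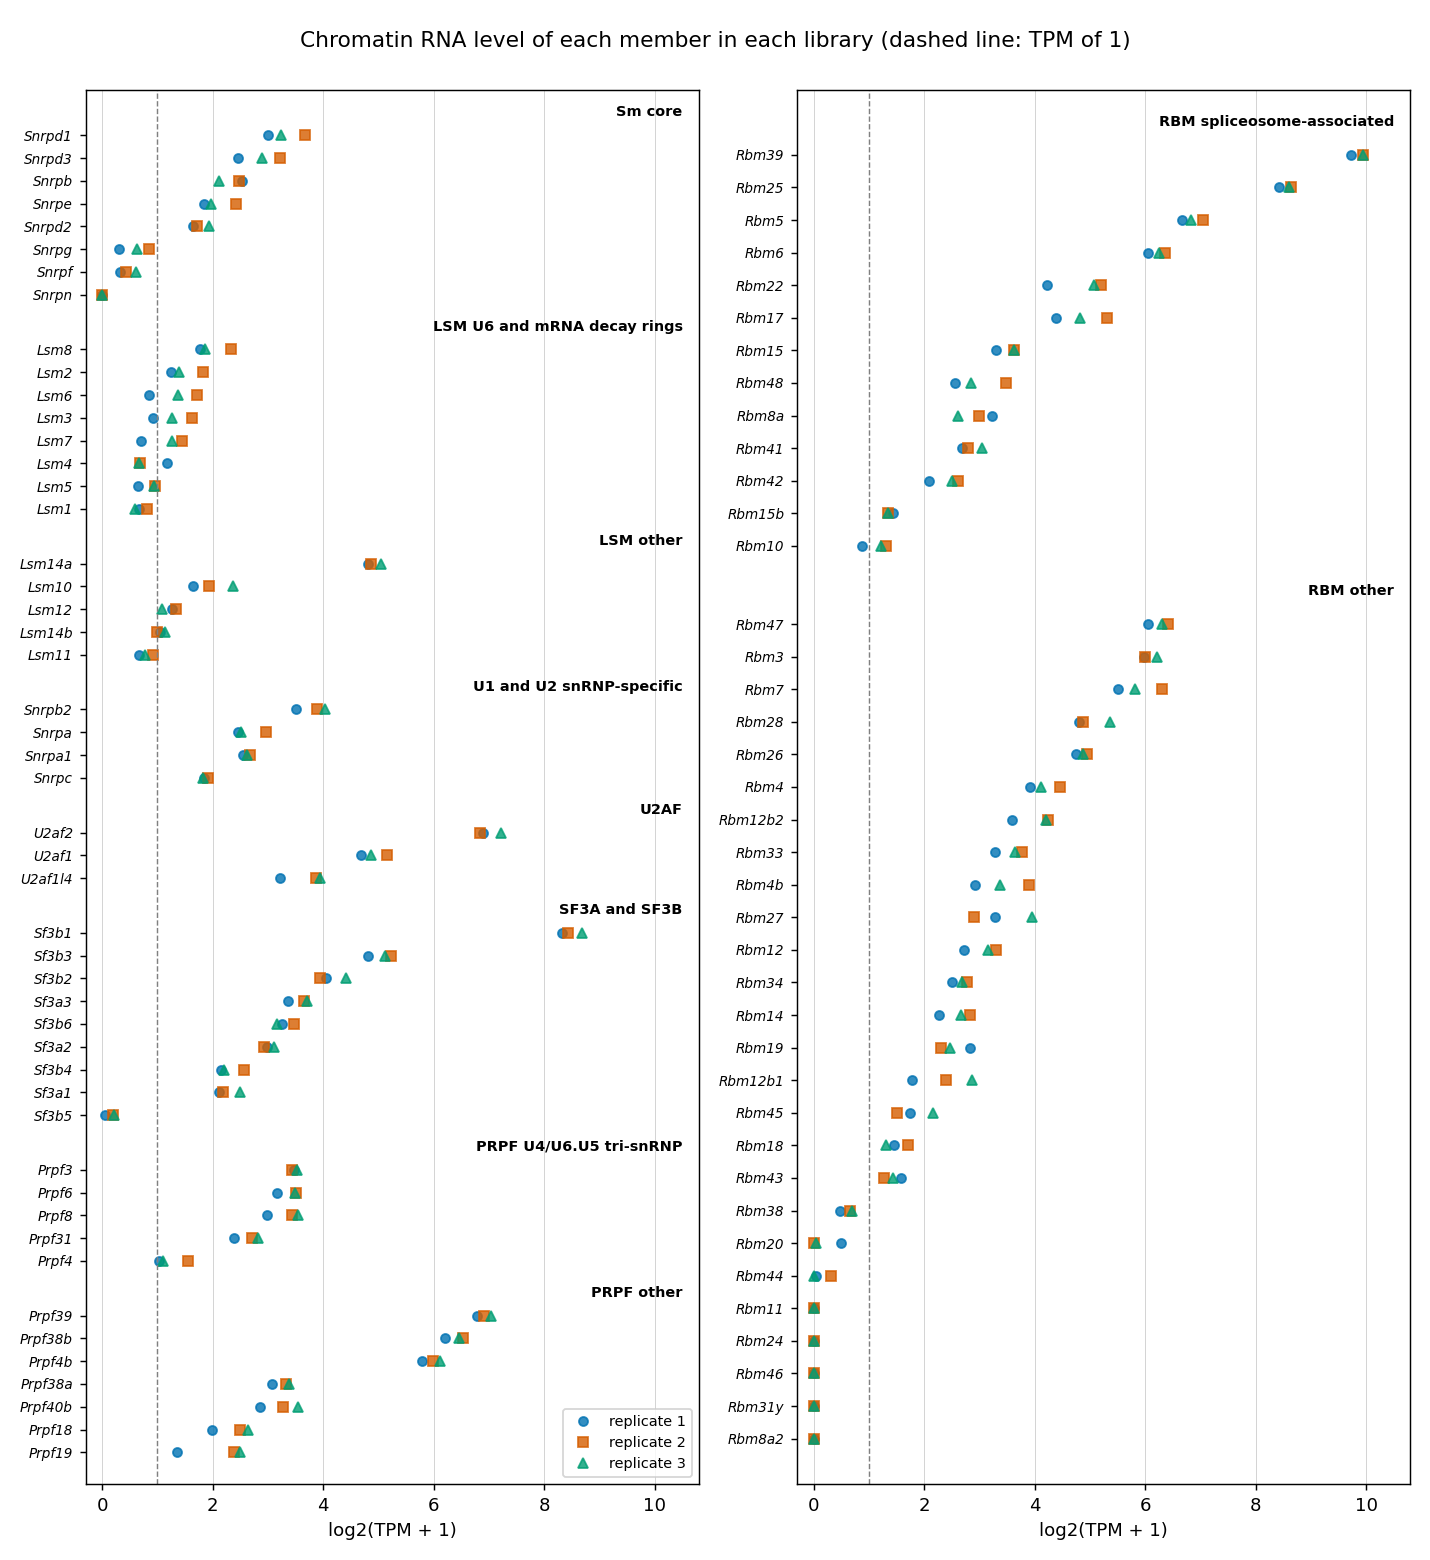
Level of 88 of the 89 genes, as log2(TPM + 1) on the horizontal axis, in each of the 3 libraries (circle, square and triangle), by role and ordered by mean TPM. The dashed line marks a TPM of 1, which 68 of the 89 genes reached in all 3 libraries, and Rbm39, Rbm25 and Sf3b1 stand furthest right.

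The rings of Sm and LSM proteins, which sit on the small nuclear RNAs themselves, had lower transcript levels than the 89 genes together. The median log2(TPM + 1) was 1.92 in the Sm list and 1.22 in the LSM list. It was 2.67 over the 89 genes and 0.30 over all coding genes. With kallisto the Sm and LSM medians were 2.81 and 1.87, beside 3.41 over the 89 genes and 1.24 over all coding genes. The 5 LSM genes with other tasks had a median of 1.25, and 2.45 with kallisto, so low levels were not particular to these rings. Of the 8 Sm genes, 5 were detected, led by Snrpd1 at 6.98, 11.7 and 8.39 TPM in replicates 1, 2 and 3. Snrpd3 followed at 4.46, 8.24 and 6.43 TPM, and Snrpb, which encodes SmB, at 4.76, 4.57 and 3.35. Snrpg and Snrpf stayed below 1 TPM in each library. Snrpg had 0.23, 0.79 and 0.54 TPM from at most 7 counts, and Snrpf had 0.25, 0.34 and 0.53 TPM with 92.1% of its 31-base words also present in other genes, so its counts are uncertain. With kallisto Snrpg averaged 1.95 TPM and was detected. Of the 8 LSM genes of the U6 ring and of the cytoplasmic ring that promotes mRNA decapping, 2 were detected: Lsm8 at 2.43, 4.03 and 2.63 TPM and Lsm2 at 1.37, 2.54 and 1.62. Lsm1, the member specific to the decapping ring, stood lowest at 0.58, 0.76 and 0.50 TPM. With kallisto 6 of these 8 genes were detected, and Lsm5 (0.934 TPM) in place of Lsm1 (1.64) was lowest. Mean TPM in the gene table ranged from 0 (Snrpn) to 9.02 (Snrpd1) in the Sm list and from 0.613 (Lsm1) to 3.03 (Lsm8) in the LSM list.

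Among LSM genes with other tasks, Lsm14a, a regulator of stored and repressed mRNA, was highest in the gene table at 27.1, 28.0 and 32.2 TPM. With kallisto Lsm12 stood above it, at 103 against 40.1 TPM. The paralog of Lsm14a, Lsm14b, had 1.07, 0.99 and 1.21 TPM, so that Lsm14a was between 25.3 and 28.3 times higher in every library (16.9 to 19.8 times with kallisto). Lsm10 and Lsm11, which form the U7 snRNP for histone mRNA ends, averaged 3.03 and 0.73 TPM. The 4 genes under the rule that encode proteins specific to U1 and U2 were all detected. Snrpb2, which encodes U2B″, led with 10.3, 13.7 and 15.3 TPM, and Snrpa1, which encodes its partner protein in U2, had 4.85, 5.38 and 5.11. Of the U1 genes, Snrpa averaged 5.33 ± 1.27 TPM, a range that takes in Snrpa1, and Snrpc averaged 2.62 ± 0.114 (SD, n = 3 each).

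The genes of U2AF, which recognises the 3′ splice site, had a median log2(TPM + 1) of 4.90. U2af2, which encodes the subunit that binds the polypyrimidine tract, had 118, 113 and 148 TPM. U2af1, whose protein reads the AG of the acceptor, had 24.7, 34.4 and 28.0 TPM, and the related U2af1l4 had 8.27, 13.6 and 14.3. In each library U2af2 was between 3.30 and 5.29 times U2af1 (1.59 to 2.82 times with kallisto). Both genes share sequence with others (21.4% and 25.8% of 31-base words). For U2af1l4 the share was 49.6%, nearly all of it with an overlapping gene of the same strand. Within the coding transcripts of U2af2, U2af1 and U2af1l4 the shares were 39.2%, 57.1% and 70.8%.

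Sf3b1, the scaffold of SF3B that clamps the branch point, stood apart from its own complex, whose 9 SF3A and SF3B genes had a median log2(TPM + 1) of 3.29. It had 319, 342 and 408 TPM, with replicate 3 highest. Sf3b3 had 26.9, 36.4 and 33.5 TPM and Sf3b2 had 15.6, 14.3 and 20.4, so Sf3b1 was between 9.40 and 12.2 times Sf3b3 and between 20.0 and 24 times Sf3b2. With kallisto Sf3b1 was between 6.61 and 9.52 times Sf3b3 and between 11.6 and 12.5 times Sf3b2. These ratios hold for RNA on chromatin, in a complex that contains 1 copy of each protein. Sf3b5, a gene with a single exon, was lowest at 0.04, 0.15 and 0.16 TPM, and it was the only 1 of the 9 SF3A and SF3B genes that was not detected. With kallisto it had 1.87, 2.14 and 1.96 TPM, and all 9 were detected.

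The 5 tri-snRNP genes averaged between 1.38 and 10.2 TPM. Prpf3 had 10.1, 9.83 and 10.6 TPM, Prpf6, which bridges U4/U6 and U5, had 7.95, 10.3 and 10.2, and Prpf8, the large U5 protein at the heart of the active spliceosome, had 6.88, 9.77 and 10.7. Prpf31, mutated in a human form of retinitis pigmentosa, had 4.23, 5.54 and 6.02 TPM, and Prpf4 was lowest at 1.05, 1.94 and 1.14. All 5 were detected. The other PRPF genes spread more widely. Prpf39, whose counterpart in budding yeast belongs to the U1 snRNP, had 109, 120 and 130 TPM, Prpf38b had 72.4, 91.1 and 86.9, and Prpf4b, a kinase that acts on tri-snRNP proteins, had 53.9, 62.6 and 68.0. In these 3 genes replicate 1 was lowest. Prpf19, the ubiquitin ligase of the activated spliceosome, closed the list at 1.55, 4.20 and 4.64 TPM. Between paralogs, Prpf38b was between 9.27 and 10.1 times Prpf38a.

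The RBM genes held the highest value and 5 of the 6 genes listed at 0 in every library. Rbm39, an SR-related factor related to U2AF, had 841, 978 and 979 TPM, and Rbm25, a factor of alternative 5′ splice sites, had 344, 399 and 386. Rbm5, known for its part in the choice of exons in apoptosis genes, had 100.0, 130 and 113 TPM. Each of these 3 genes was lowest in replicate 1, and the values of no pair of them overlapped. Rbm6, a neighbour and relative of Rbm5, averaged 73.8 ± 8.15 TPM (SD, n = 3). Rbm10, the X-linked paralog of Rbm5, had 0.84, 1.47 and 1.34 TPM and so missed detection in replicate 1. It was detected with kallisto, at 1.11, 1.82 and 1.45 TPM in the same order of libraries. Rbm10 also shares sequence with other genes (53.5%), so its level is uncertain. Rbm15, which guides the m6A methyltransferase, was between 5.24 and 7.30 times its paralog Rbm15b (3.27 to 3.72 times with kallisto). In the second RBM list, Rbm47, a partner of RNA-editing enzymes, had 65.5, 83.8 and 77.7 TPM. Rbm3, known as a cold-induced protein, had 62.0, 62.5 and 72.9, and Rbm7, part of the nuclear exosome targeting complex, had 44.4, 78.4 and 55.1. The muscle factors Rbm20 (0.153 TPM) and Rbm24 (0) and the germ-line genes Rbm44 (0.09) and Rbm46 (0) stood at the other end.

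Replicate 1 was the lowest library for 53 of the 68 detected genes by TPM (77.9%). The share was 75.8% among all detected coding genes, so the order was not particular to these genes. By CPM, the counts scaled to the library's total on annotated genes, replicate 1 was lowest for 21 of the 68 (30.9%). The starting RNA amount also differed between the libraries, and its part in these orders was not tested. The edgeR biological coefficient of variation had a median of 0.169 over 75 of the genes and 0.175 over all 12505 genes with enough counts. The largest SDs of log2(TPM + 1) were those of Prpf19 (0.63), Rbm12b1 (0.55), Rbm27 (0.53), Rbm22 (0.53) and Rbm4b (0.49). For Prpf19 the counts of 57, 73 and 84 differed less than its TPM. Rbm12b1 shares 68.1% of its 31-base words with its neighbour Rbm12b2, and these 2 genes are therefore uncertain. Across the 68 detected genes, the mean TPM had a Spearman rank correlation of 0.53 with the number of annotated transcripts and of 0.40 with the span of the gene. These points share the libraries and the annotation.

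Retained-intron isoforms held the largest part of the RNA of these genes. In the transcript table of the same quantification, 53.2% ± 1.96 of the summed TPM of the 89 genes lay in retained-intron transcripts, 29.8% ± 1.79 in coding transcripts, 10.4% ± 0.867 in NMD transcripts and 6.50% ± 0.772 in processed transcripts (SD, n = 3). Over all protein-coding genes the shares were 39.3% ± 1.65, 48.2% ± 1.48, 3.58% ± 0.218 and 8.89% ± 0.213. Without Rbm39 the genes had 56.0% in retained-intron and 6.35% in NMD transcripts, so that much of the NMD share was that of Rbm39. Chromatin carries RNA that is still being made and spliced, and reads from introns not yet removed can be assigned to such transcripts, so a retained-intron level is not a count of finished RNA. The lists also differed in annotation. Retained-intron and coding transcripts were both annotated, with a summed TPM above 0, in 60 of the 89 genes and 7947 of 21901 coding genes. The part of annotation and of transcript length in these shares was not tested.

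**Figure D2:**
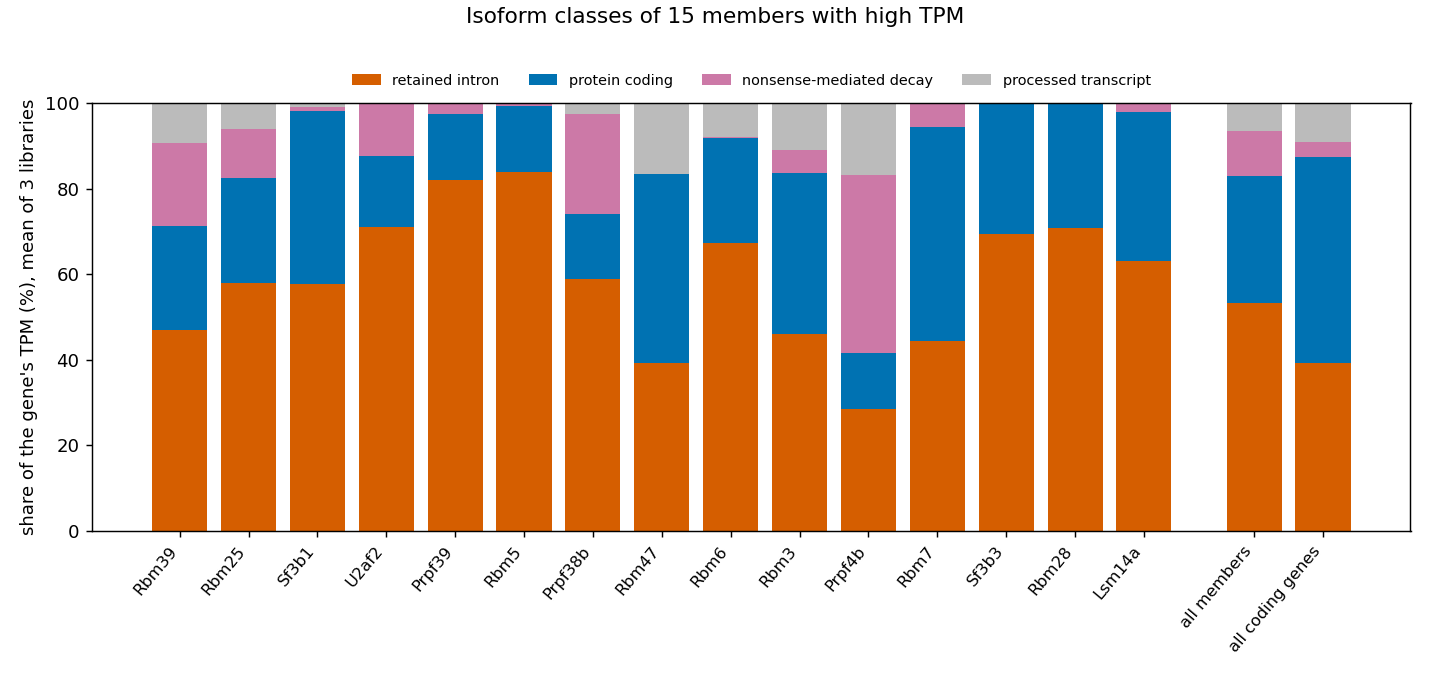
Share of TPM by isoform class, in percent and as the mean of 3 libraries, for 15 of the 16 genes with the highest TPM, for all 89 genes together and for all protein-coding genes. Retained-intron transcripts take 53.2% over the 89 genes and 39.3% over all coding genes.

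Of 173 annotated retained-intron transcripts in 61 of the genes, 54 hold at least 1 whole intron of a coding transcript. Another 70 run past a donor into an intron, and another 43 start inside an intron and run through its acceptor. The other 6 do none of these, among them Rbm39-211, Sf3b1-205 and Prpf39-206, at 75.5, 63.9 and 23.2 TPM on average. The 67 whole introns, in 30 genes, had a median length of 437 bases, beside 277 bases for 8676 such introns in 3972 genes of the whole annotation. Both lists were shorter than the coding introns of the same genes, whose medians were 699 and 857 bases. The pair GT and AG bounded 66 of the 67 introns (98.5%), beside 97.9% in the whole annotation. In Sf3b1, the transcript with the intron shown above had 106, 131 and 130 TPM, next to 132, 127 and 173 TPM for its only coding transcript. In Rbm25 the transcript with the intron shown above had 75.3, 88.1 and 84.1 TPM, and the main coding transcript, Rbm25-201, had 59.3, 51.9 and 61.1. The library values of those 2 Rbm25 transcripts did not overlap, while those of the 2 Sf3b1 transcripts did. All 7 coding transcripts of Rbm25 together had 89.7, 84.3 and 103 TPM, which overlapped the values of Rbm25-206. In Rbm39 the transcript that crosses the donor shown above had 69.6, 95.1 and 83.7 TPM, beside 207, 203 and 223 for the main coding transcript, Rbm39-217.

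The ratio of retained-intron to coding isoforms was tested for each gene with limma against 0, on log2 of summed TPM with 0.5 added, in all 5601 genes that have both classes and whose summed TPM averaged 1 or more. The p-values measure only the spread between these 3 libraries. Of the 89 genes 54 could be tested. Retained-intron isoforms were higher in 32 of them (59.3%), where the share over all genes tested was 35.5%, and lower in 6 (11.1%), where it was 31.8%. The other 16 were called neither way. Over the 54 genes the median log2 ratio was 0.80, and over all genes tested it was 0.08. In all 32 and all 6 the ratio had the same sign in the 3 libraries. Without 8 genes that share at least 20% of their 31-base words with other genes, 28 were higher and 5 lower of 46, a setting chosen after the values were seen.

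**Figure D3:**
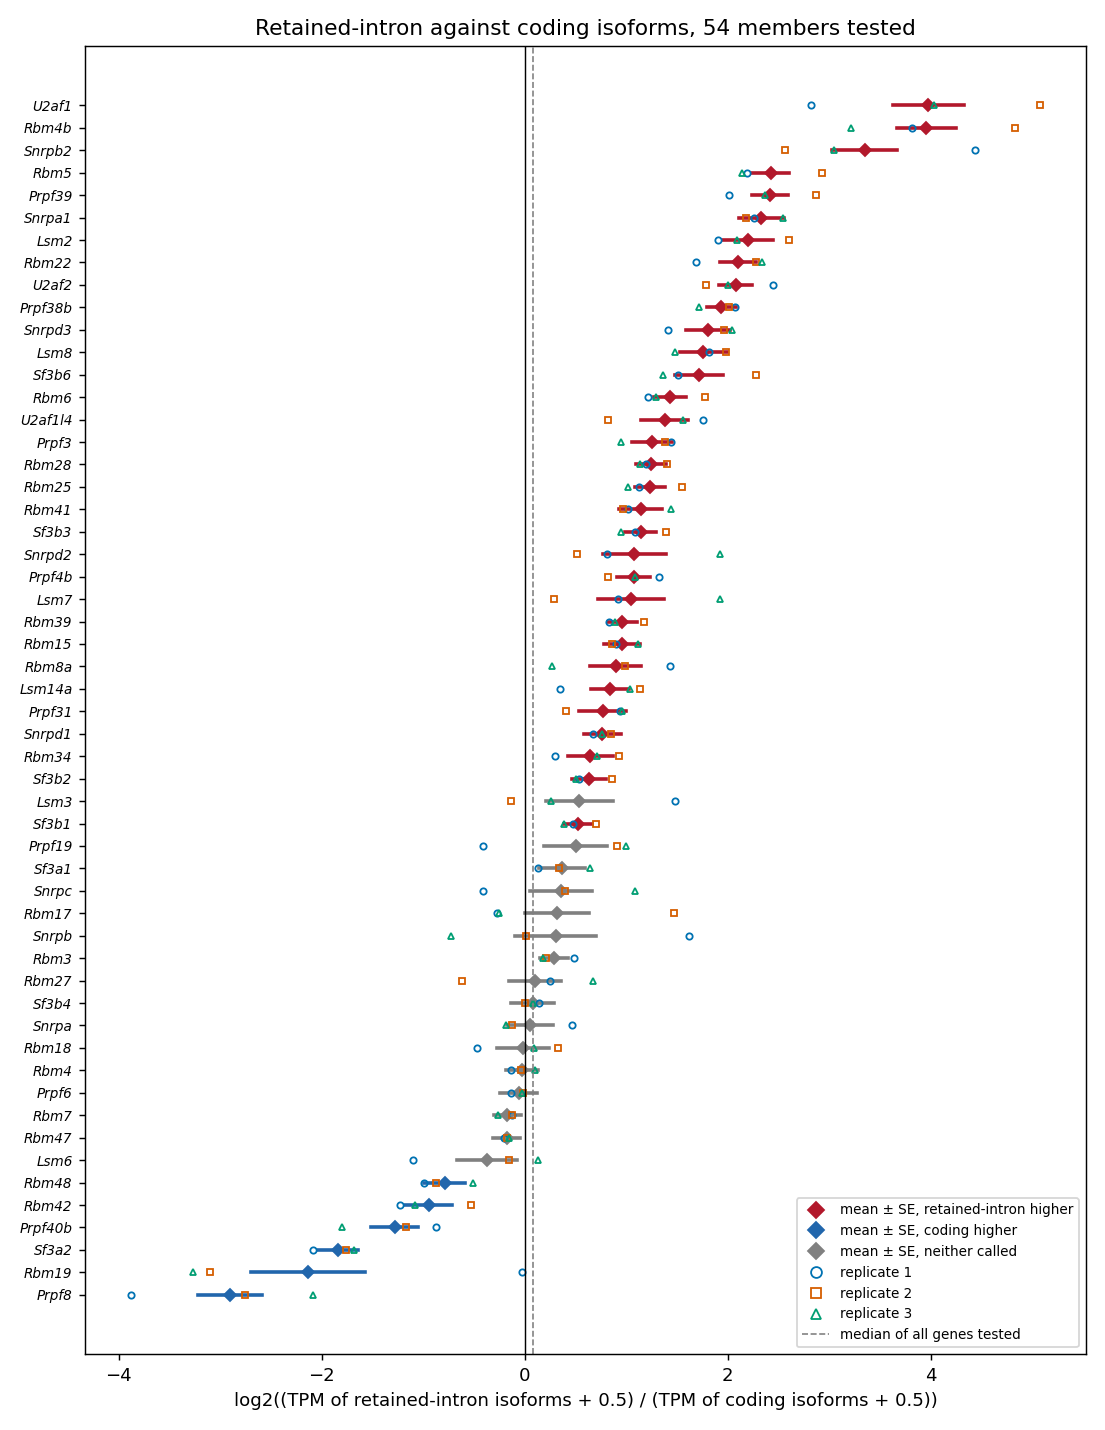
Log2 ratio of retained-intron to coding isoform TPM (0.5 added to each) for the 54 genes tested, with the mean and its limma SE as diamond and bar and each library as an open symbol. The 32 genes called higher lie to the right of 0 and the 6 called lower to the left, and the dashed line is the median of all genes tested.

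All 3 U2AF genes were on the retained-intron side. U2af1 had 19.8, 29.9 and 23.5 TPM in retained-intron isoforms, against 2.37, 0.40 and 0.97 in coding isoforms, and a log2 ratio of 3.98 (SE 0.35, limma adjusted p = 2.22e-05). U2af2 had 86.5, 76.4 and 107 TPM against 15.5, 21.8 and 26.3, a ratio of 2.08 (SE 0.16). In both genes the lowest retained-intron value lay above the highest coding value. Within coding transcripts, 57.1% of the 31-base words of U2af1 and 39.2% of those of U2af2 occur in other genes. These coding levels are therefore uncertain. Rbm4b, a regulator of alternative splicing, had 6.55, 13.7 and 8.80 TPM in retained-intron isoforms, against 0, 0 and 0.50 in coding isoforms (3.95, SE 0.29). The pseudocount sets the size of that ratio. Of the 31-base words of Rbm4b, 35.6% occur in other genes (55.6% within coding transcripts). The chief one is an overlapping gene on the opposite strand, and strand was not known here. The U2 genes followed, with Snrpb2 at 10.3, 12.1 and 14.0 TPM in retained-intron against 0, 1.62 and 1.26 in coding isoforms (3.35, SE 0.32). Snrpa1 had a ratio of 2.33 (SE 0.22).

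The RBM genes bound to the spliceosome had retained-intron isoforms higher in 8 of 11 tested and lower in 2. In the second RBM list they were higher in 3 of 10 and lower in 1, with a median ratio of 0.04. Over all genes tested the shares were 35.5% higher and 31.8% lower. The lists were drawn up with earlier results of these data known, so their contrast is a description only. Rbm5 had 82.1, 115 and 92.1 TPM in 13 retained-intron transcripts, against 17.5, 14.7 and 20.4 TPM in 7 coding transcripts, and a ratio of 2.42 (SE 0.18, limma adjusted p = 8.71e-06). Prpf39 equalled it at 2.42 (SE 0.18), with 86.1, 102 and 106 TPM in retained-intron against 21, 13.6 and 20.2 in coding isoforms. Values of both classes stayed far apart in every library. The most abundant gene, Rbm39, had a smaller ratio of 0.96 (SE 0.15, limma adjusted p = 0.000488), from 384, 489 and 446 TPM against 216, 217 and 240. Rbm25 stood at 1.23 (SE 0.15) and Rbm22, whose protein contacts U6 and the pre-mRNA, at 2.10 (SE 0.18). Lsm2 (2.20, SE 0.25) was listed at a coding TPM of 0 in every library, against 1.37, 2.54 and 1.63 in retained-intron isoforms. The pseudocount therefore sets the size of its ratio. Prpf38b (1.94, SE 0.14), Snrpd3 (1.80, SE 0.22) and Lsm8 (1.76, SE 0.23) were also called.

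SF3 genes varied in direction, with retained-intron isoforms higher in 4 of 7 tested and lower in 1, beside 35.5% and 31.8% of all genes tested. Sf3b6, known in human as the subunit next to the branch point adenosine, had a ratio of 1.72 (SE 0.23) and Sf3b3 one of 1.14 (SE 0.15). Sf3b1 had only 0.52 (SE 0.14, limma adjusted p = 0.00987), from 183, 207 and 227 TPM in 5 retained-intron transcripts against 132, 127 and 173 TPM in 1 coding transcript. It was not called without replicate 1 (0.55). Of those 5 transcripts, Sf3b1-205, at 63.9 TPM on average, crosses no boundary of a coding intron, and the ratio without it was not tested. When the mean TPM per annotated transcript was taken in place of the sum, the 3 genes Sf3b1, Sf3b2 and Sf3b3 turned to the coding side, at -1.79, -0.75 and -0.77. Sf3a2 was on the coding side in the main fit as well, with 1.00, 1.23 and 1.54 TPM in retained-intron against 5.85, 5.35 and 6.05 in coding isoforms (-1.84, SE 0.20, limma adjusted p = 6.94e-05).

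The lowest ratio was that of Prpf8, at -2.91 (SE 0.31, limma adjusted p = 6.65e-05). It had 0, 0.89 and 1.73 TPM in its retained-intron transcript, against 6.87, 8.88 and 8.96 in coding transcripts. Prpf40b (-1.28, SE 0.23), Rbm42 (-0.95, SE 0.23) and Rbm48 (-0.79, SE 0.20) were also lower. Rbm42 shares 74.4% of its 31-base words with an overlapping gene. Rbm19, a factor of ribosome assembly, had a ratio of -2.13 (SE 0.56), with retained-intron TPM of 2.43, 0 and 0 against coding TPM of 2.49, 3.79 and 4.33. Replicate 1 stood apart there, and the call was lost without replicate 2 (-1.65) and with kallisto (-0.065). Among genes called in neither direction, Rbm7 (-0.17, SE 0.13) and Rbm47 (-0.18, SE 0.13) had close values of both classes in each library, and Rbm3 stood at 0.29 (SE 0.14). With kallisto Rbm47 was called lower at -2.06, and Rbm7 stayed at -0.10.

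Isoforms annotated as NMD targets were mostly below coding isoforms, as they were over all genes tested. Of 24 genes tested by the same method, NMD isoforms were higher in 3 (12.5%), where the share over 2450 genes tested was 5.55%, and lower in 16 (66.7%), where it was 77.2%. The median log2 ratio of -2.02 lay near the -1.90 of all genes tested. Prpf4b was highest, with 23.9, 21.7 and 30.7 TPM in NMD isoforms against 5.53, 10.2 and 8.99 in its coding isoform (1.60, SE 0.25, limma adjusted p = 0.00118). It was called in that direction with every replicate left out in turn. With the mean TPM per annotated transcript its ratio was 0.07 and not called. U2af1l4 (0.81, SE 0.26) and Snrpa1 (0.80, SE 0.31) had limma adjusted p-values of 0.0271 and 0.0494. Each lost its call without replicate 3 (0.61 and 0.44), which left Prpf4b as the only 1 called higher. U2af1l4 also lost it without replicate 2 (0.78), and Snrpa1 without replicate 1 (0.86).

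**Figure D4:**
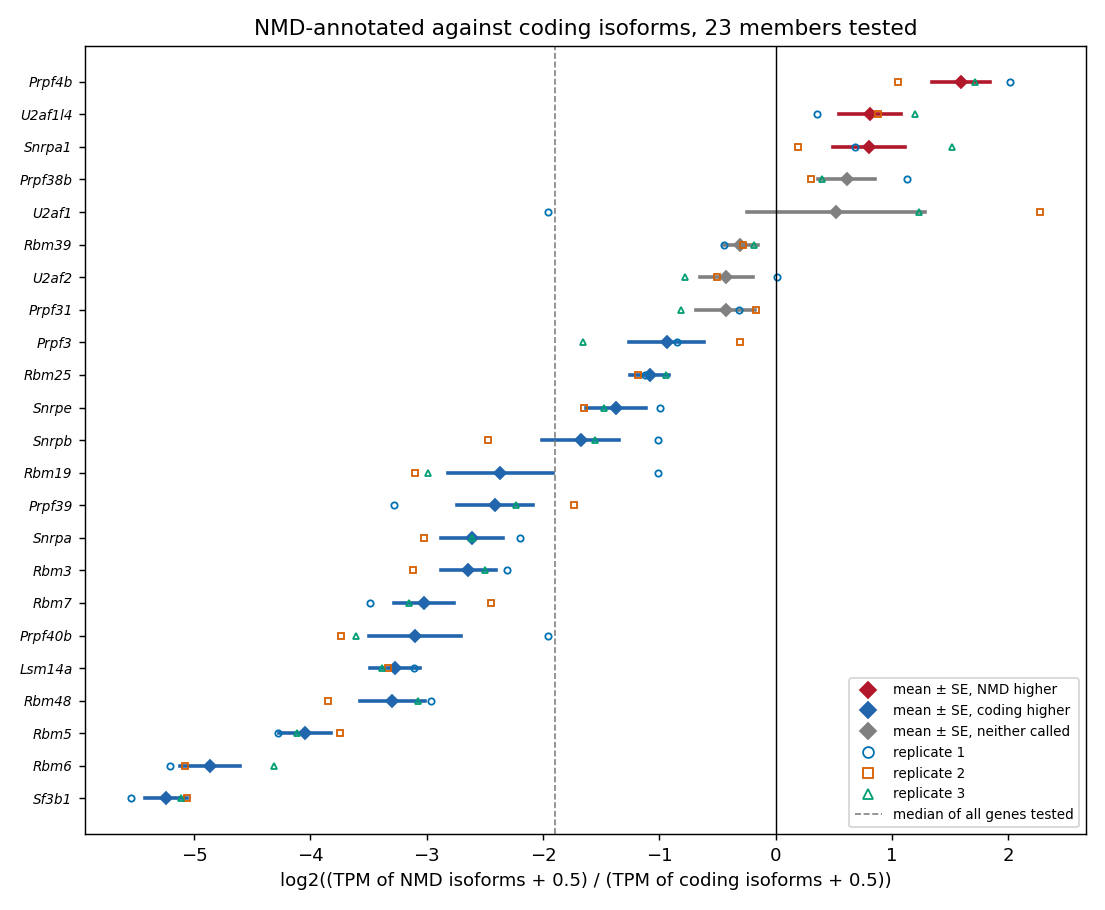
Log2 ratio of NMD to coding isoform TPM (0.5 added to each) for 23 of the 24 genes tested, with the mean and its limma SE as diamond and bar and each library as an open symbol. Prpf4b stands at 1.60 at the top and Sf3b1 at -5.24 at the bottom, and the dashed line at -1.90 is the median of all genes tested.

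The most abundant genes differed widely in this ratio. Rbm39 had 158, 179 and 212 TPM in 8 NMD transcripts against 216, 217 and 240 TPM in coding transcripts, a ratio of -0.30 (SE 0.15, limma adjusted p = 0.0999). Rbm25 had 41.0, 36.8 and 53.2 TPM against 89.7, 84.3 and 103 (-1.08, SE 0.17). Sf3b1 had 2.34, 3.31 and 4.50 TPM against 132, 127 and 173, the lowest ratio of the 24 at -5.24 (SE 0.18, limma adjusted p = 7.39e-06). In Sf3b1 the NMD and coding values were far apart in every library, and in Rbm39 the highest NMD value lay just under the lowest coding value. Rbm6 (-4.86, SE 0.26), Rbm5 (-4.05, SE 0.22), Rbm48 (-3.29, SE 0.28) and Lsm14a (-3.27, SE 0.22) were the next lowest. In Rbm48 the NMD transcript was listed at 0 in each library. U2af1 was the least stable, with NMD levels of 0.24, 3.85 and 2.96 TPM against coding levels of 2.37, 0.40 and 0.97, and replicate 1 went the other way from replicates 2 and 3. Without replicate 1 it was called higher (1.75).

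The kallisto table gave higher levels for 77 of the 89 genes and lower levels for 9, with a median difference of 0.51 in log2(TPM + 1). By it, 79 genes were detected (88.8%, against 50.1% of all coding genes), among them all 68 of the gene table. Rbm39 averaged 1817 TPM there, against 933 in the gene table, and Rbm47 had 188 against 75.7. The widest gap was that of Lsm12, an LSM-domain protein, at 103 against 1.35, of which 92.2 TPM lay in the single transcript Lsm12-202. Its kallisto values of 176, 60.2 and 71.6 TPM were uneven, and without replicate 1 their mean was 65.9. Rbm8a2, which shares 28.6% of its 31-base words with other genes, chiefly Rbm8a, averaged 6.64 TPM there and 0 in the gene table. Sf3b1 was lower with kallisto, at 320 against 356.

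**Figure D5:**
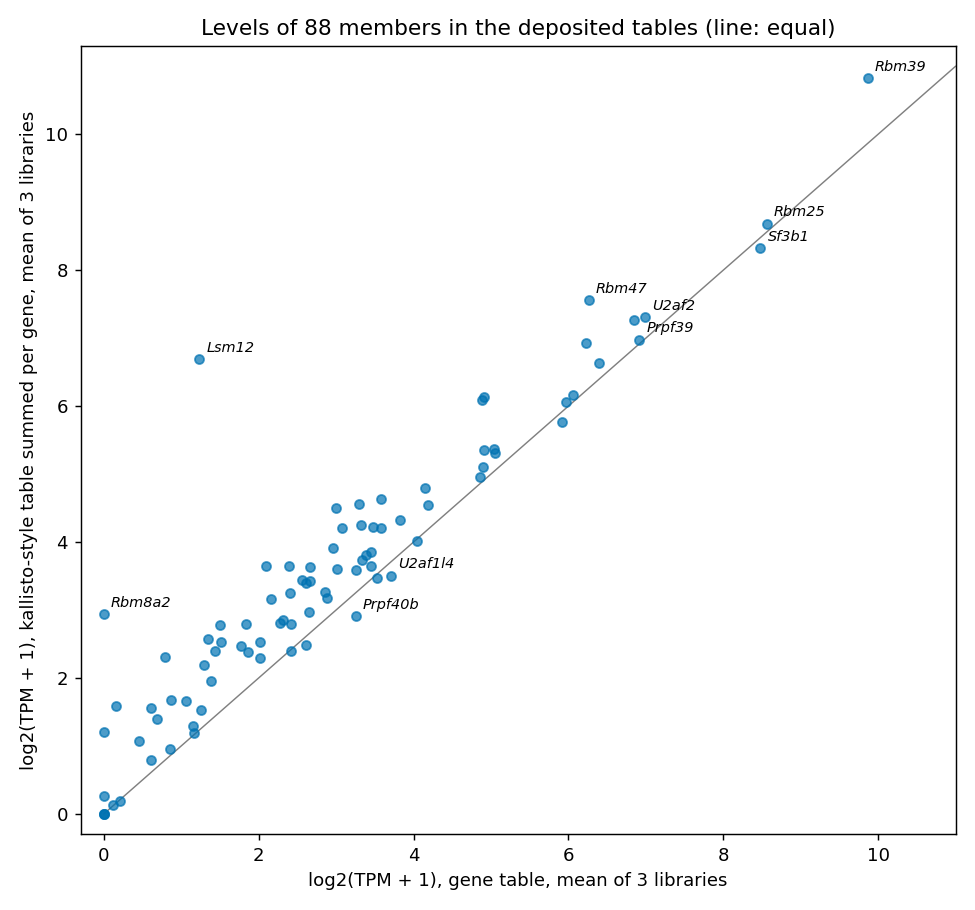
Mean log2(TPM + 1) over 3 libraries of 88 of the 89 genes in the kallisto-style table (vertical axis) and in the gene table (horizontal axis). Most points lie above the line of equal values, and Lsm12 (103 against 1.35 TPM) lies farthest from it.

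With that table, retained-intron isoforms were higher in 34 and lower in 10 of 57 genes tested, where 46.8% and 32.4% of all genes tested were called in these directions. Of the 54 genes tested with both tables, 26 were higher in both and 5 lower in both. Snrpd2, an Sm protein gene, was called in both with opposite signs, at -0.55 with kallisto and 1.08 in the main fit. With kallisto NMD isoforms were higher in 4 and lower in 15 of 27 genes tested. Over all genes tested with kallisto, 12.6% were higher and 68.5% lower. Of the 24 genes tested for NMD isoforms with both tables, 12 were lower in both and only Prpf4b was higher in both (2.13 with kallisto). How many of all genes were called in both tables was not counted, for either class. Snrpb was called with opposite signs, at 0.93 and -1.68. Rbm39 stood at 1.92 with kallisto, where it was called higher, and at -0.30 in the main fit, where it was not called. In Rbm39 the NMD transcript Rbm39-224 averaged 276 TPM with kallisto and 7.09 TPM in the main table, so the direction of its NMD ratio depended on the table. Other ratios named above that moved by more than 1 on the log2 scale with kallisto were the retained-intron ratios of Prpf8 (-1.83), Prpf38b (3.05) and Lsm8 (0.75) and the NMD ratios of Rbm6 (-3.86) and Lsm14a (-1.87), each called in the same direction in both tables.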

How the data were processed

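Total RNA-seq of chromatin RNA was analysed in 3 libraries of 1 group, taken from the labels. Per the labels the assembly was mm10, and text files deposited with each library give the annotation as GENCODE M21. Per the file headers, a gene table and a transcript table hold expected counts and TPM under the column names of RSEM, and a second transcript table holds estimated counts and TPM under those of kallisto. The sources used here name neither the programs, nor their versions, nor the strand setting. Antisense and overlapping genes are therefore uncertain. Replicates were not pooled, and every count was used as deposited by the authors.

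From these files, TPM was averaged over libraries with the SD, and TPM of transcripts was summed by annotated class. The log2 ratio of classes, after adding 0.5 TPM to each, was compared with 0 in limma 3.58.1. The model held an intercept only and used empirical Bayes with a variance trend. The threshold was 0.05 after Benjamini-Hochberg adjustment over all genes tested. The spread was measured with edgeR 4.0.16 on expected counts rounded to whole numbers, with TMM factors and filterByExpr. Both were tested on simulated data. Shared sequence is the share of a gene's 31-base words that occur in transcripts of another gene. R was 4.3.3, python 3.11.15 and pandas 2.3.3. The members, role lists and tests were chosen with earlier results of these data known. A single member is counted but not reported here by name. Members were named with values by library for the highest and lowest of each role, the 8 highest and 8 lowest by each ratio and the 5 most variable, and the text gives a selection of these. Alternatives were kallisto values, other pseudocounts, filters and scalings, and leaving out each library. The transcript table also holds lower and upper bounds for each TPM. The isoform tests used TPM alone, so they carry no error for reads assigned to the wrong isoform.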

Additional observations from a re-analysis of the deposited data

How the results depend on the processing

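No paired analysis was possible because there is no second group to pair with, and each isoform ratio was taken within a library. Leaving out each replicate kept the detected number between 68 and 72, the genes with retained-intron isoforms higher between 28 and 30 and lower between 5 and 6, and the genes with NMD isoforms higher between 1 and 3 and lower between 15 and 16. The median retained-intron ratio ranged from 0.72 to 0.88 and the median NMD ratio from -1.99 to -1.64, and the median coefficient of variation from 0.119 to 0.201. The median log2 level, 2.67, was 3.41 with kallisto, 3.44 with CPM, 2.44 with a pseudocount of 0.1 and 3.28 over detected genes. At a TPM of at least 5, 41 genes were detected, and the share over all coding genes at that threshold was not counted. With kallisto, 10 genes had retained-intron isoforms lower, the median NMD ratio was -1.01, and retained-intron, coding and NMD transcripts held 44.0%, 25.4% and 18% of TPM. Without Rbm39 these shares were 56.0%, 32.3% and 6.35%. The median retained-intron ratio was 0.94 and 0.68 with pseudocounts of 0.1 and 1, 0.96 at a summed TPM of at least 5, 0.64 with no filter and 0.88 per annotated transcript. The median NMD ratio was -2.67 and -1.48 with those pseudocounts, -2.64 at a summed TPM of at least 5, -1.25 with no filter and -0.89 per annotated transcript. At a summed TPM of at least 5 fewer genes were tested, and 10 of 15 had NMD isoforms lower (66.7%, beside 82.0% over all genes tested). Over all genes tested, the median retained-intron ratio of 0.08 was 0.30 with kallisto and 0.29 per annotated transcript, and the median NMD ratio of -1.90 was -1.52 and -0.89. Without genes that share at least 20% of 31-base words, NMD isoforms were higher in 2 and lower in 15 of 20. For the other changes the cause was not tested.

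Single ratios changed sign mainly with the quantifier and the scaling. With kallisto the retained-intron ratio turned to -0.087 in Snrpd1, 1.41 in Rbm18, -0.00050 in Rbm34, -0.55 in Snrpd2, -0.10 in Lsm14a and -0.023 in Sf3b4, and the NMD ratio to 0.93 in Snrpb, 1.92 in Rbm39 and -0.14 in Snrpa1. Per annotated transcript the retained-intron ratio turned to -0.39 in Sf3a1, 1.28 in Prpf6, -0.26 in Prpf19, -0.75 in Sf3b2, -1.79 in Sf3b1, 0.53 in Rbm18, -0.43 in Snrpb, 0.42 in Lsm6, -0.77 in Sf3b3, -0.59 in Rbm17, 0.80 in Rbm7, 2.96 in Rbm47 and 2.21 in Rbm4. The NMD ratio there turned to 0.55 in Prpf31, 0.69 in Rbm25, 0.22 in Prpf3, -0.35 in Prpf38b, 0.14 in U2af2 and 0.21 in Snrpe. With replicates left out the retained-intron ratio ranged from -0.19 to 0.21 in Rbm18, -0.36 to 0.82 in Snrpb, -0.16 to 0.17 in Snrpa, -0.086 to 0.033 in Rbm4, -0.26 to 0.61 in Rbm17, -0.0055 to 0.74 in Snrpc and -0.18 to 0.46 in Rbm27, and the NMD ratio from -0.36 to 1.75 in U2af1. None of these 8 was called in the main test.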
